A study of Homo sapiens with 4 samples.

Results

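The stress-related mRNAs ATF4, ATF5, DDIT3, PPP1R15A, PPP1R15B, IFRD1 and SLC35A4 were followed in ribosome footprints of human melanocytes. They were chosen because each carries upstream open reading frames (short reading frames in the 5′ UTR, ahead of the main one) that hold back the main reading frame, and they are 7 of the 14355 gene names in the deposited tables. The cells were Hermes 4B, an immortalised line of melanocytes, the pigment cells of skin, labelled as wild type. One group of cells had received an siRNA against CDH3-AS1, an antisense RNA of the P-cadherin gene CDH3, and the other a control siRNA (siCDH3AS1 and siCtrl in what follows). Both siRNAs were given at 25 to 50 nM, both groups grew with a phorbol ester, endothelin-1, cholera toxin and stem cell factor, and both were washed with 100 µg/mL cycloheximide, which stops ribosomes on the mRNA, before RNase I digestion. Each siRNA had 2 libraries, and the labels put replicate 1 of both in batch 1 and replicate 2 of both in batch 2. The labels name no separate cultures, so the p-values below measure only the spread between these 4 libraries, which may be technical, and the smallest two-sided p that exact permutation of these few libraries allows for a single value is 0.333. The level of CDH3-AS1 itself was not analysed here.

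In the integrated stress response, kinases phosphorylate the initiation factor eIF2, which slows initiation on most mRNAs. Upstream reading frames in the mRNAs described here normally take up scanning ribosomes, and when active eIF2 is scarce more ribosomes pass them and reach the main reading frame. ATF4, ATF5 and DDIT3 (CHOP) are transcription factors of the response, PPP1R15A (GADD34) and PPP1R15B (CReP) are the subunits that bring protein phosphatase 1 to phosphorylated eIF2, IFRD1 is a transcriptional coregulator, and SLC35A4 belongs to a family of nucleotide sugar transporters and its mRNA carries a long upstream frame that encodes a small protein.

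Upstream start codons can be seen directly in the first transcribed bases of 5 members. In the RefSeq promoter windows of GRCh38.p14, which hold the first 50 transcribed bases of a gene, ATF4, DDIT3, PPP1R15A, IFRD1 and SLC35A4 had an ATG in at least 1 window, against 40.7% of 27305 genes counted with 1 window each. The following stretches are given to place the codons at which upstream translation can begin, with the ATG in capitals.
ATF4: gcccgcccacagATGtagttttctctgcgc
DDIT3: aaggcactgagcgtatcATGttaaagatga
PPP1R15A: cagttgttgatcttATGcaagacgctgcac
IFRD1: ctagagagaaacATGtatcgttttcgatca
SLC35A4: tcggcggggaagATGgcggatgacaaggtg
These lie at chr22:39520574-39520603 on the + strand for ATF4, chr12:57520468-57520497 on the − strand for DDIT3, chr19:48872441-48872470 on the + strand for PPP1R15A, chr7:112450475-112450504 on the + strand for IFRD1 and chr5:140564832-140564861 on the + strand for SLC35A4. The IFRD1 stretch belongs to an alternative RefSeq start inside the gene. Counted from the RefSeq start of that window, the ATG is at base 28 in ATF4, 38 in DDIT3, 35 in PPP1R15A, 28 in IFRD1 and 17 in SLC35A4. The ATF4 codon is followed at once by the stop codon tag, so this frame is a start and a stop with nothing between. DDIT3 has a further ATG at base 47. RefSeq lists separate protein-coding loci inside 3 of the genes, LOC128125814 in DDIT3, LOC128031837 in IFRD1 and LOC131768270 in SLC35A4. The first base of LOC128125814 (57520480) is the A of the DDIT3 codon shown, and the first base of LOC128031837 (112450487) is the A of the IFRD1 codon shown, while LOC131768270 has the same first base as SLC35A4. The windows of ATF5 and PPP1R15B held no ATG in their transcribed bases, which says nothing of the rest of their 5′ UTRs. The letters TGATGNAA, a form of the composite site that C/EBP and ATF proteins bind, were searched on both strands. They occurred in windows of 2 of the 7 members, PPP1R15B and IFRD1, against 3.67% of the 27305 genes. Members were counted over any window and the 27305 genes with 1 window each, so these figures are not directly comparable. The IFRD1 site is at base 19 of an alternative RefSeq start inside the gene.

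The deposited tables give reads per transcript and region, and they do not keep the 5′ UTR and coding reads of a gene together. Of 2689 genes with over 1 transcript and at least 50 reads in each region over the 4 libraries, 1515 (56.3%) had most of their 5′ UTR reads on a different transcript from most of their coding reads, and so did 3 of the 4 members that meet these limits (ATF5, PPP1R15A and PPP1R15B, but not ATF4). DDIT3 and IFRD1, with fewer 5′ UTR reads, were split in the same way. For PPP1R15A, ENST00000600406.2 (5′ UTR of 449 bases) had 1757 and 484 5′ UTR reads in siCDH3AS1 replicates 1 and 2, against 602 and 518 in siCtrl replicates 1 and 2, with 11 and 0 coding reads against 0 and 4. Its coding reads stood mainly on ENST00000704027.1, with 1850 and 405 in the siCDH3AS1 libraries, against 481 and 619 in the siCtrl libraries. PPP1R15B had all its 5′ UTR reads on ENST00000689921.1 while its coding reads were 908 on ENST00000693720.1 and 63 on ENST00000367188.5. The transcript with most reads held most reads of both regions for ATF4 (ENST00000404241.6) and SLC35A4 (ENST00000612662.2, the only one listed) and not for the other members, so reads summed over the transcripts of a gene are given below unless stated. The tables list lengths and not positions. Whether the 5′ UTR of one isoform covers the coding sequence of another, as the coding lengths of 1740, 1860 and 2073 bases for PPP1R15A leave possible, cannot be told apart from reads on an upstream frame.

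**Figure D1:**
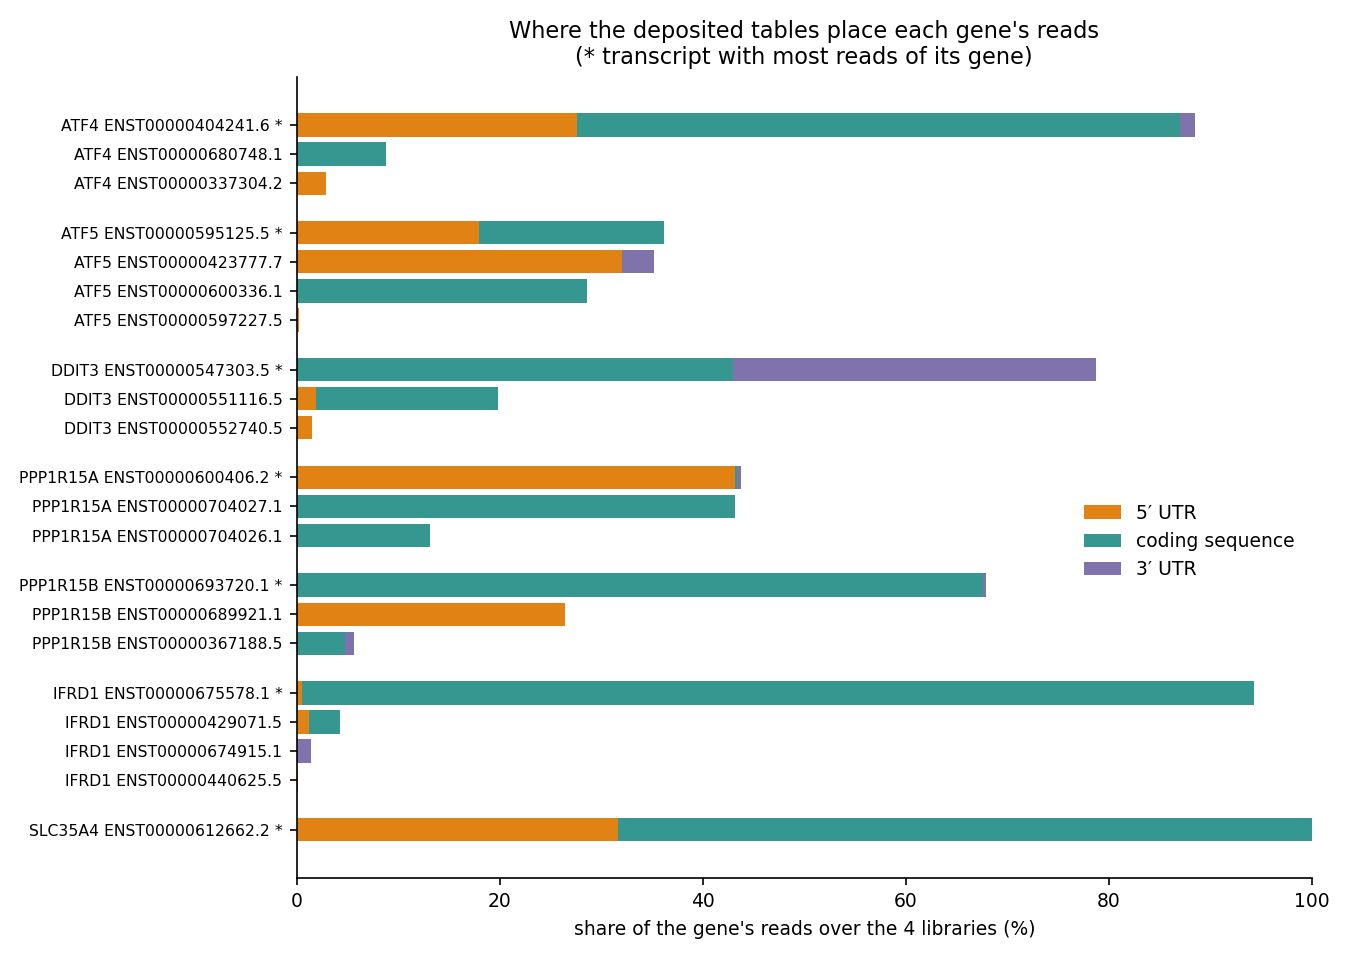
Share of each gene's reads over the 4 libraries (x axis, percent) by transcript (y axis), split into 5′ UTR, coding sequence and 3′ UTR; the asterisk marks the transcript with most reads of its gene. PPP1R15A and PPP1R15B have their 5′ UTR and coding reads on different transcripts, and DDIT3 has a large 3′ UTR block on ENST00000547303.5.

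In all 4 libraries the 5′ UTRs of ATF4, ATF5, PPP1R15A and PPP1R15B held a larger part of the footprints than those of the library. SLC35A4 was above as well, but its 2 of 10 reads in siCDH3AS1 replicate 2 were too few to tell it from the library. The 5′ UTR of DDIT3 was above in the batch 2 libraries and the 5′ UTR of IFRD1 in none. Over all transcripts, the 5′ UTR took 3.90% and 7.21% of the 5′ UTR and coding reads in siCDH3AS1 replicates 1 and 2, against 6.19% and 5.13% in siCtrl replicates 1 and 2. With reads summed, 5 of the 7 members were above the share of the library in all 4 libraries, where 21.7% of 6121 genes with at least 50 such reads in every library were. SLC35A4, counted in the 5, had 10 such reads in siCDH3AS1 replicate 2 and is not among the 6121. With the transcript with most reads 4 of 7 members were above (ATF4, ATF5, PPP1R15A and SLC35A4), where 14% of 5443 genes were. ATF5 and SLC35A4 had too few reads there to be among the 5443. The count of members was 2 with the transcript that had most coding reads, where 13.3% of 5428 genes were above. It was also 2 with the transcript that had most reads in each library, where 13.4% of 5487 genes were. By reads per base on the transcript with most reads it was 3, and the share over all genes was not computed. SLC35A4 dropped out, since its 5′ UTR was 0.280 and 0.249 times as dense as its coding sequence in siCDH3AS1 and siCtrl replicate 2. These values were under the 0.480 and 0.330 of these libraries.

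On the transcript with most reads PPP1R15A had the highest share of the 7 members in all 4 libraries, at 99.2% or more. With summed reads ATF5 had the highest in all 4 libraries. The 5′ UTR held 45.1% of its reads in siCDH3AS1 replicate 1 (95% Clopper-Pearson interval 40.9 to 49.4) and 59.5% in replicate 2 (49.7 to 68.7), against 68.7% in siCtrl replicate 1 (60.5 to 76.1) and 53.4% in replicate 2 (45.8 to 61.0). These intervals and those below cover counting error only. In every library the interval of ATF5 overlapped that of another member. The siRNA groups overlapped, and in each library at least 98.9% of the ranked genes had a lower share. The first 599 bases of the ATF5 gene overlap NUP62 and IL4I1 on the other strand. The use of strand in counting is not given, so reads in that overlap cannot be assigned to ATF5 alone. PPP1R15A had 41.5% (40.0 to 43.0) and 49.4% (46.3 to 52.6) in the siCDH3AS1 libraries, against 48.7% (45.9 to 51.6) and 39.9% (37.2 to 42.6) in the siCtrl libraries. The order of the siRNAs was opposite in the 2 batches, as it was for the library shares themselves. Its 3361 5′ UTR reads on ENST00000600406.2 were the most of any member. Per base they were 4.38 and 5.52 times as dense as the coding reads on ENST00000704027.1 in the siCDH3AS1 libraries, against 5.78 and 3.86 times in the siCtrl libraries. These ratios leave out the 1018 coding reads of the gene on ENST00000704026.1.

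PPP1R15B, the phosphatase subunit that is present without stress, had shares of 28.0% (24.6 to 31.7) and 27.6% (21.3 to 34.6) in siCDH3AS1 replicates 1 and 2, against 26.5% (20.01 to 33.8) and 24.1% (19.6 to 29.1) in siCtrl replicates 1 and 2, and all 4 intervals overlapped. Over the share of the library this was 3.82 to 7.19 times, beside 8.25 to 11.6 times for ATF5 and 6.86 to 10.6 times for PPP1R15A. ATF4 had 26.3% (23.0 to 29.9) and 53.1% (41.7 to 64.3) in siCDH3AS1 replicates 1 and 2, against 27.1% (20.5 to 34.4) and 47.0% (37.6 to 56.5) in siCtrl replicates 1 and 2. Both batch 2 libraries were therefore above both batch 1 libraries, and within a batch the siRNAs were close. SLC35A4 rested on few reads, 17 and 2 in the 5′ UTR in the siCDH3AS1 libraries, against 9 and 4 in the siCtrl libraries. Its shares of 34.0% (21.2 to 48.8) and 20% (2.52 to 55.6), against 47.4% (24.4 to 71.1) and 18.2% (5.19 to 40.3), could not be told from each other at this depth. The interval in siCDH3AS1 replicate 2 also included the 7.21% of that library.

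DDIT3 had 7 and 10 5′ UTR reads in siCDH3AS1 replicates 1 and 2, against 2 and 10 in siCtrl replicates 1 and 2. The shares were 2.33% (0.94 to 4.73) and 18.2% (9.08 to 30.9), against 2.11% (0.256 to 7.40) and 9.52% (4.66 to 16.8). The batch 1 libraries were below the share of their library and the batch 2 libraries above it. Only in siCDH3AS1 replicate 2 did the interval exclude the share of the library. IFRD1 had 11 and 1 5′ UTR reads in the siCDH3AS1 libraries, against 1 and 2 in the siCtrl libraries, so its share was at most 2.86% and below that of the library in all 4.

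**Figure D2:**
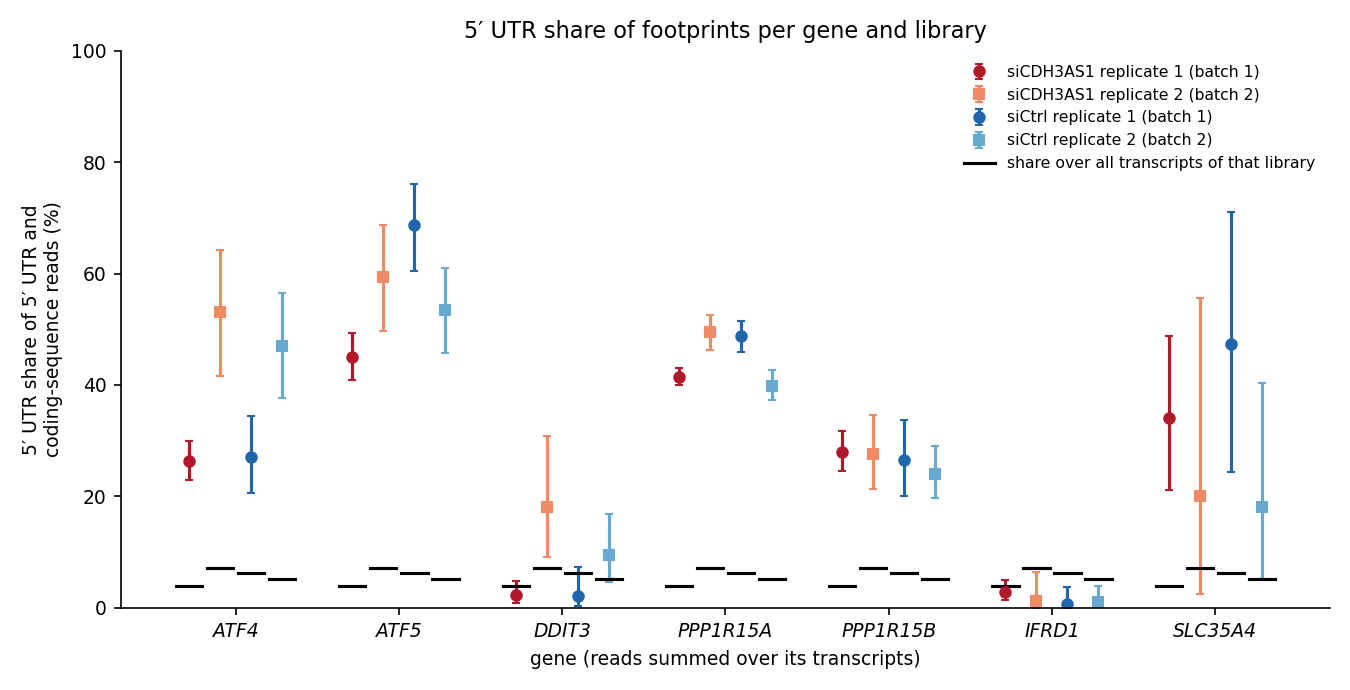
The y axis gives the 5′ UTR share of the 5′ UTR and coding-sequence reads in percent, per gene (x axis) and library, with 95% Clopper-Pearson intervals as bars; short black lines mark the share over all transcripts of that library. ATF4 stands at 53.1% and 47.0% in batch 2 and at 26.3% and 27.1% in batch 1, and IFRD1 lies under the line of every library.

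In the coding sequence PPP1R15A had the most footprints per length and SLC35A4 the fewest. As deposited RPKM, reads scaled to region length and library size, summed over transcripts, PPP1R15A had 185.5 and 86.4 in siCDH3AS1 replicates 1 and 2, against 157.0 and 65.2 in siCtrl replicates 1 and 2. The medians over the 4 libraries ran in the order PPP1R15A (121.7), DDIT3 (56.4), ATF4 (49.8), ATF5 (47.1), IFRD1 (33.9), PPP1R15B (26.8) and SLC35A4 (4.05). Of DDIT3, ATF4, ATF5, IFRD1 and PPP1R15B, each overlapped the next of that order in its range over the libraries, so these neighbours did not differ beyond their spread. SLC35A4, at 2.87 to 5.04 RPKM, was below all the others in every library, and PPP1R15A was above all the others in every library. The sums add RPKM of transcripts with different coding lengths, so reads on a short one weigh more. Of the 117.2 RPKM of ATF5 in siCDH3AS1 replicate 1, 94.2 stood on the 267-base coding sequence of ENST00000600336.1. How far the order of the middle members depends on this was not tested.

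No member differed between the siRNAs beyond the spread between the libraries. By edgeR's quasi-likelihood test 0 of the 6 members tested on the transcript with most reads passed an adjusted p of 0.05, where 0% of 10281 genes did (208 genes had an unadjusted p under 0.05, and DESeq2 called 2 genes). With summed reads it was 0 of 7 members and again 0% of 10469 genes, with 224 genes at an unadjusted p under 0.05. With the batch as a replicate block, 1.44% of genes passed on the transcript with most reads (0.827% higher and 0.613% lower) and 1.62% with summed reads, and no member was among them. PPP1R15A was not tested on the transcript with most reads, since its coding reads lie elsewhere.

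The levels of the coding sequence are given as CPM, reads scaled to the total of coding reads of the library, on which 3 reads stood at 0.473 and 1.15 CPM in siCDH3AS1 replicates 1 and 2, against 1.63 and 0.533 CPM in siCtrl replicates 1 and 2. ATF5, a transcription factor that also supports the mitochondrial stress response, had 47.6 and 17.2 CPM in siCDH3AS1 replicates 1 and 2, against 25.0 and 14.6 CPM in siCtrl replicates 1 and 2. It was the higher with siCDH3AS1 in both batches, by 0.93 and 0.24 on the log2 scale, yet the groups overlapped. Its log2 fold change was 0.78 (SE 0.56) without the block and 0.63 (SE 0.36, adjusted p = 0.589 by edgeR's quasi-likelihood test) with it.

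ATF4, the main transcription factor of the response, had 75.5 and 14.6 CPM in the siCDH3AS1 libraries, against 67.3 and 10.8 CPM in the siCtrl libraries. Group means were 45.0 ± 43.1 CPM with siCDH3AS1 and 39.1 ± 39.9 CPM with siCtrl (SD, n = 2 each), a spread set by the batches. The log2 fold change was 0.30 (SE 0.96), and 0.31 (SE 0.33) with the block. PPP1R15A had 390.7 and 189.7 CPM in the siCDH3AS1 libraries, against 343.6 and 138.6 CPM in the siCtrl libraries. It was higher with siCDH3AS1 by 0.19 in batch 1 and by 0.45 in batch 2 (log2), and with the block the log2 fold change was 0.36 (SE 0.24), short of the threshold in edgeR's quasi-likelihood test (adjusted p = 0.714).

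Of the other members, PPP1R15B had 72.0 and 51.3 CPM in the siCDH3AS1 libraries, against 67.8 and 45.3 CPM in the siCtrl libraries. DDIT3 had 46.3 and 17.2 CPM with siCDH3AS1, against 50.5 and 16.9 CPM with siCtrl. IFRD1 had 58.9 and 31.8 CPM with siCDH3AS1, against 80.9 and 31.6 CPM with siCtrl, and SLC35A4 had 5.20 and 3.07 CPM with siCDH3AS1, against 5.43 and 3.20 CPM with siCtrl. All 3 were close within batch 2, and IFRD1 differed the most within batch 1. ATF4, ATF5, PPP1R15A and PPP1R15B, 4 of the 7, were higher with siCDH3AS1 in both batches and 1, SLC35A4, was lower in both, where 23.2% of all tested genes were higher in both. Over the 7 members the log2 fold changes had a median of 0.18, beside -0.03 over all 10469 genes. In 0 of the 7 members did the siRNA groups separate, where they separated in 27.3% of genes, in either direction.

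In the 5′ UTR, and in the 5′ UTR relative to the coding sequence, no member passed the test between the siRNAs, nor did any other gene without the block. In the 5′ UTR 0 of 4 members tested passed edgeR's quasi-likelihood test on the transcript with most reads (0% of 2240 genes, 10 at an unadjusted p under 0.05) and 0 of 5 with summed reads (0% of 3967, 21 at an unadjusted p under 0.05). DDIT3 and IFRD1 had too few 5′ UTR reads to be tested. ATF4, ATF5, DDIT3 and PPP1R15A, 4 of the 7, had a higher 5′ UTR CPM with siCDH3AS1 in both batches, where 25.1% of the 3967 genes did. DDIT3, counted in the 4, is not among the 3967. It had 7 and 10 reads in siCDH3AS1 replicates 1 and 2, against 2 and 10 in siCtrl replicates 1 and 2. In CPM scaled to the total of 5′ UTR reads of the library, PPP1R15A had 6828 and 2388 CPM in siCDH3AS1 replicates 1 and 2, against 4950 and 1702 CPM in siCtrl replicates 1 and 2. That is 0.46 and 0.49 (log2) higher with siCDH3AS1 in batches 1 and 2, beside 0.19 and 0.45 in the coding sequence. ATF4 had 663.8 and 212.1 CPM in the 5′ UTR in the siCDH3AS1 libraries, against 378.2 and 177.4 CPM in the siCtrl libraries. Set against the coding reads in an interaction test, the 5′ UTR reads of ATF4, ATF5, PPP1R15A, PPP1R15B and SLC35A4 had log2 differences of 0.22 (SE 0.82), -0.43 (SE 0.67), 0.14 (SE 0.72), 0.27 (SE 0.70) and -0.01 (SE 1.32), of which 0 passed (0% of 3891 genes, 4 at an unadjusted p under 0.05). With the block 0 members passed as well, where 0.0471% of 2124 genes did, higher in each case, on the transcript with most reads.

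**Figure D3:**
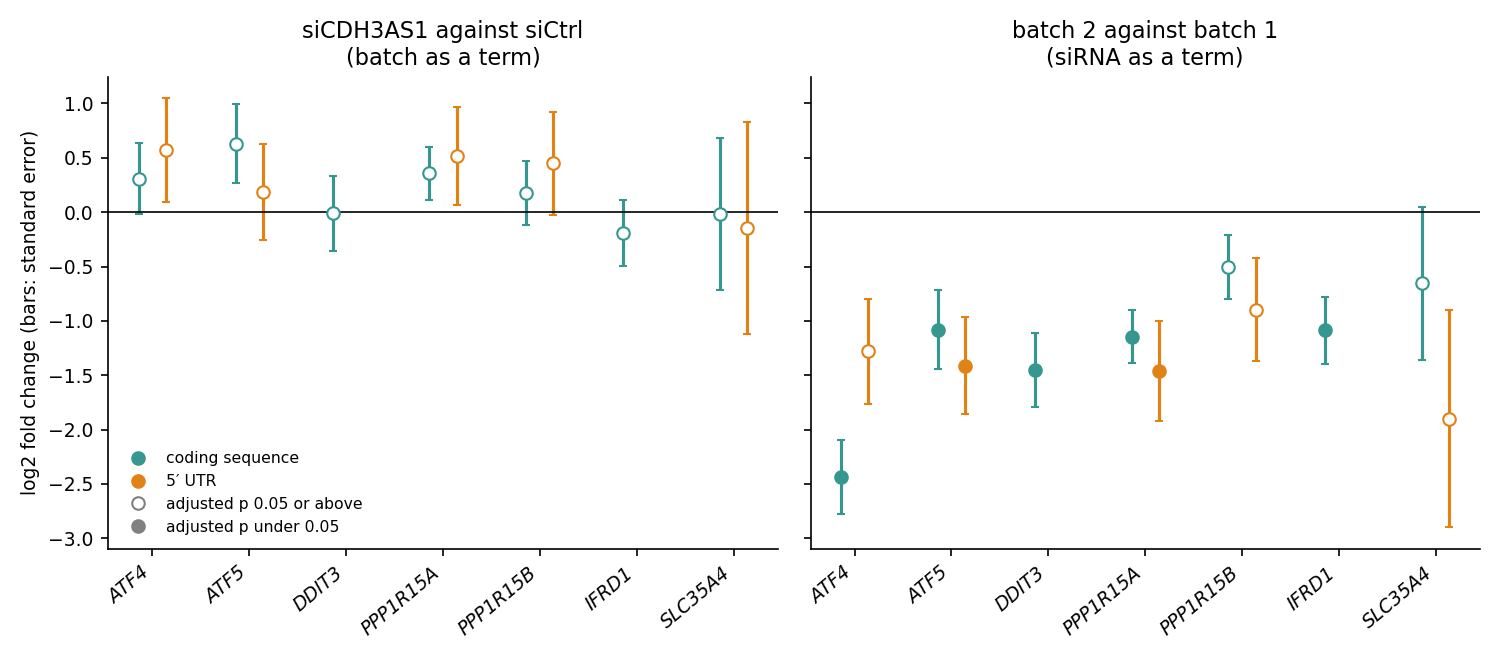
Log2 fold changes (y axis, bars give the standard error) of coding-sequence and 5′ UTR reads per gene (x axis), siCDH3AS1 against siCtrl on the left (batch as a term) and batch 2 against batch 1 on the right (siRNA as a term), with reads summed over transcripts; filled points have an adjusted p under 0.05. Points on the left are open for every gene shown, and those on the right lie below 0.

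The members differed between the batches far more than between the siRNAs. This comparison was added after the values had been seen, and the labels do not say what set the batches apart. In the coding sequence all 7 members were lower in both batch 2 libraries than in both batch 1 libraries, where 27% of the tested genes were. With the siRNA as a term, 5 of the 7 were called lower in batch 2, where 6.3% of 10469 genes were called lower and 15.8% were called in either direction. The median log2 fold change of the members was -1.09, beside 0.01 over all genes.

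ATF4 fell the most of the 7. It had 14.6 CPM with siCDH3AS1 and 10.8 CPM with siCtrl in batch 2, against 75.5 CPM with siCDH3AS1 and 67.3 CPM with siCtrl in batch 1. The log2 fold change was -2.43 (SE 0.34, adjusted p = 4.8e-11 by edgeR's quasi-likelihood test). Without a term for the siRNA it was -2.45 (SE 0.32), with a much larger adjusted p of 0.00374 by the same test. PPP1R15A fell by 1.15 (SE 0.25, adjusted p = 9.1e-05) to 189.7 and 138.6 CPM in batch 2, against 390.7 and 343.6 CPM in batch 1. DDIT3, which encodes the pro-apoptotic factor CHOP, fell by 1.45 (SE 0.34, adjusted p = 4.16e-04) to 17.2 and 16.9 CPM in batch 2, against 46.3 and 50.5 CPM in batch 1.

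IFRD1 fell by 1.09 on the log2 scale (SE 0.31, adjusted p = 0.00466 by edgeR's quasi-likelihood test) and ATF5 by 1.08 (SE 0.36, adjusted p = 0.0212). On the transcript with most reads, which lacks the coding reads on ENST00000600336.1, ATF5 stood at -2.44 (SE 0.54, adjusted p = 2.84e-05). PPP1R15B, at -0.50 (SE 0.29, adjusted p = 0.249), and SLC35A4, at -0.66 (SE 0.70, adjusted p = 0.536), did not pass. The ATF5 call was lost with DESeq2 (adjusted p = 0.155). Without a term for the siRNA the ATF5 (adjusted p = 0.0934) and IFRD1 (adjusted p = 0.053) calls were lost. Those of DDIT3 (adjusted p = 0.0228) and PPP1R15A (adjusted p = 0.0356) stayed, closer to the threshold. Leaving out 1 library sets 2 libraries against 1 and was run without a siRNA term. Without siCtrl replicate 2 no member was called (ATF4 at -2.21, adjusted p = 0.0735), and without siCDH3AS1 replicate 2 ATF4 alone was (adjusted p = 0.0392). Without siCtrl replicate 1 PPP1R15A (adjusted p = 0.0611) and IFRD1 (adjusted p = 0.159) were not called, and without siCDH3AS1 replicate 1 ATF5 was not (-0.60, adjusted p = 0.384).

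The siCtrl library of batch 1 stood apart in its markers. Of 15 skeletal muscle genes 13 are listed, and their summed coding levels were 17.8 and 5.75 CPM in siCDH3AS1 replicates 1 and 2, against 4193 and 10.8 CPM in siCtrl replicates 1 and 2, with all 13 read in siCtrl replicate 1. Of 6 fibroblast genes 5 are listed, at 4.88 and 1.92 CPM with siCDH3AS1, against 492.3 and 0.533 CPM with siCtrl. In siCtrl replicate 1 the fibroblast genes DCN and PDGFRA were at 0. The batches also differed in markers of the skin. All 10 melanocyte markers were read in every library and summed to 31899 and 40329 CPM in batch 2, against 21655 and 23399 CPM in batch 1. Of 6 keratinocyte genes 4 are listed, of which 1 to 3 were read in a library, and they summed to 35.6 and 30.6 CPM in batch 2, against 8.03 and 8.68 CPM in batch 1. KRT10 was the only one of them read in every library, and in siCDH3AS1 replicate 1 it made up the whole sum. KRT14, a defining keratinocyte gene, was at 0 in 3 of the 4 libraries, and KRT5 and KRT6A had no reads in any. The part of these marker levels in the batch differences of the members was not tested. Within the siCDH3AS1 libraries alone, where the muscle genes were low in both, batch 2 over batch 1 was -2.37 for ATF4, -1.46 for ATF5, -1.43 for DDIT3, -1.04 for PPP1R15A and -0.89 for IFRD1 (log2). Within the siCtrl libraries the same differences were -2.63, -0.78, -1.58, -1.31 and -1.35. In bulk libraries fewer cells with a high level and less RNA per cell cannot be told apart, and without RNA-seq neither can mRNA level and ribosomes per mRNA.

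**Figure D4:**
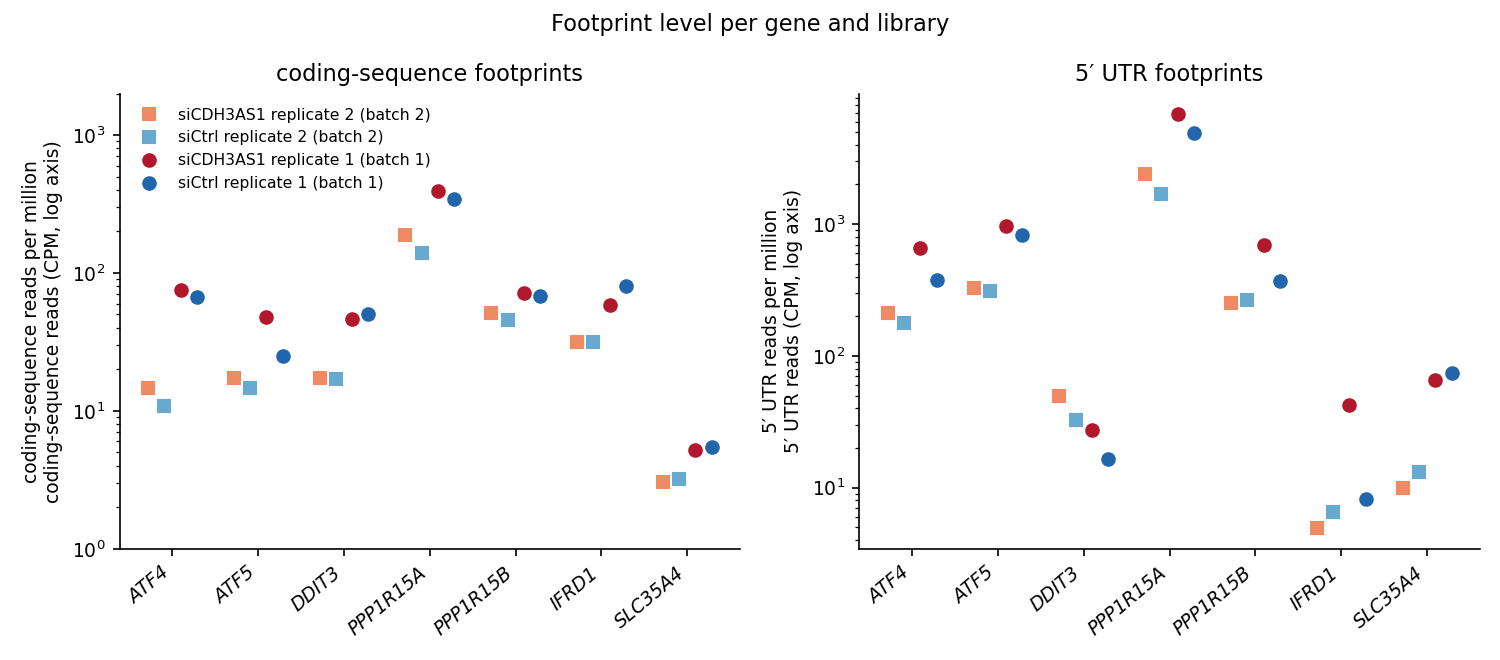
CPM, reads scaled to the total of the region (y axis, log scale) per gene (x axis) and library, coding sequence on the left and 5′ UTR on the right, with the batch 2 libraries left of the batch 1 libraries. In the coding sequence the batch 2 squares lie under the batch 1 circles for all 7 genes, and in the 5′ UTR for all but DDIT3.

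In the 5′ UTR 6 of the 7 members were lower in both batch 2 libraries, where 29.7% of 3967 tested genes were. IFRD1, counted in the 6, had 1 and 2 reads in batch 2, against 11 and 1 in batch 1. These were too few for a test, and IFRD1 is not among the 3967. ATF5, with 325.6 and 308.8 CPM in batch 2 against 962.7 and 830.5 CPM in batch 1, fell by 1.41 (SE 0.45, adjusted p = 0.0324 by edgeR's quasi-likelihood test). PPP1R15A, with 2388 and 1702 CPM against 6828 and 4950 CPM, fell by 1.46 (SE 0.46, adjusted p = 0.0342). These were the 2 calls among 5 tested members, where 10.7% of genes were called, 6.71% higher and 4.03% lower. ATF5 was not called with DESeq2 (adjusted p = 0.0723) or on the transcript with most reads (adjusted p = 0.0898). Neither was called without siCDH3AS1 replicate 1 (adjusted p = 0.0564 for ATF5 and 0.102 for PPP1R15A), without siCDH3AS1 replicate 2 or without siCtrl replicate 2 (adjusted p from 0.433 up in both cases). ATF4 stood at -1.28 (SE 0.48, adjusted p = 0.0718) and passed without the siRNA term (adjusted p = 0.0446) and without siCtrl replicate 1 (adjusted p = 0.0055), with PPP1R15B at -0.90 (SE 0.48) and SLC35A4 at -1.90 (SE 1.00). PPP1R15B passed without siCtrl replicate 1 (-1.31, adjusted p = 0.0339) and SLC35A4 without the siRNA term (adjusted p = 0.0462). DDIT3, the exception, had 49.3 and 32.9 CPM in batch 2, against 27.2 and 16.4 CPM in batch 1, on too few reads for a test.

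The 5′ UTR share of ATF4 was the higher in batch 2 with both siRNAs. Relative to the coding reads the 5′ UTR reads of ATF4 had a log2 difference of 1.09 (SE 0.58, adjusted p = 0.211 by edgeR's quasi-likelihood test), which did not pass, where 8.53% of 3891 genes did (4.91% higher and 3.62% lower). Without siCDH3AS1 replicate 1 it was 1.47 (adjusted p = 0.0333), and the other settings gave 0.85 to 1.21 with an adjusted p from 0.155 to 0.62. For ATF5, PPP1R15A and PPP1R15B the difference was -0.37, -0.32 and -0.41, within 1 standard error of 0, and for SLC35A4 it was -1.85 (SE 1.15). The 5′ UTR reads of DDIT3 were too few for this test with all 4 libraries. With 1 library left out DDIT3 could be tested in 3 of 4 cases, at 2.04 to 2.83, and passed without siCDH3AS1 replicate 1 (adjusted p = 0.0335).

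DDIT3 differed from the other members in its 3′ UTR. It had 185 and 23 3′ UTR reads in siCDH3AS1 replicates 1 and 2, against 62 and 39 in siCtrl replicates 1 and 2, all on the 221-base 3′ UTR of ENST00000547303.5. They made up 38.1% (33.7 to 42.5) and 29.5% (19.7 to 40.9) of its reads, against 39.5% (31.8 to 47.6) and 27.1% (20.02 to 35.1), with siRNA groups that overlapped. Over all transcripts the 3′ UTR took 2.28% and 1.62% of the reads in the siCDH3AS1 libraries, against 3.48% and 1.03% in the siCtrl libraries. The other 6 members had at most 9.26%, in ATF5 in siCtrl replicate 1. DDIT3 lies at chr12:57516588-57520517 on the − strand of GRCh38.p14 and overlaps the 3′ end of MARS1, on the + strand, by 65 bases. The use of strand in counting is not given in the sources used here, so reads in that overlap cannot be assigned to either gene. ATF5 (chr19:49928906-49933935, + strand) likewise shares its first 599 bases, at the 5′ end, with NUP62 and IL4I1 on the other strand. ATF4 (chr22:39520559-39522686), PPP1R15A (chr19:48872421-48876058) and PPP1R15B (chr1:204395826-204411817) overlap no other listed gene. IFRD1 lies at chr7:112423174-112477203 and SLC35A4 at chr5:140564828-140569100, both on the + strand.

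The genes around these mRNAs were read from lists. Of 18 genes of the eIF2 pathway (eIF2 subunits, its kinases, its exchange factor and phosphatase 1), 0 were called between the siRNAs, with or without the block, and the median log2 fold change was -0.10 with summed reads, beside -0.03 over all genes. The smallest p-values among genes that moved alike in both batches were those of EIF2B1, a subunit of the exchange factor, and of PPP1CB, PPP1CC and PPP1CA, the catalytic subunits that PPP1R15A and PPP1R15B recruit. PPP1CB had 154.7 and 181.6 CPM in the siCDH3AS1 libraries, against 242.1 and 316.8 CPM in the siCtrl libraries. Both siCDH3AS1 libraries were below both siCtrl libraries, yet with the block the log2 fold change was -0.68, short of the threshold (adjusted p = 0.182 by edgeR's quasi-likelihood test). EIF2B1 had 32.9 and 26.8 CPM, against 58.1 and 46.2 CPM, a log2 fold change of -0.75 with the block (adjusted p = 0.308). PPP1CC and PPP1CA stood at -0.31 and -0.34. Between the batches DNAJC3, which restrains eIF2 kinases, the kinases EIF2AK2 (PKR) and EIF2AK3 (PERK), and IMPACT, which restrains the kinase GCN2, were higher in batch 2 and 0 of the 18 lower, where 9.52% of all genes were called higher and 6.3% lower.

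Of 26 genes for start codon choice and reinitiation, 24 were tested and 0 were called between the siRNAs. On the transcript with most reads EIF1B, EIF3I, EIF2D and DENR had the smallest p-values among genes of this list that moved alike in both batches. With summed reads and the block their log2 fold changes were 0.53, -0.31, -0.10 and -0.12. Between the batches 5 were higher in batch 2, DENR, EIF1, EIF3A, EIF3J and EIF5B, and 0 lower, beside the same 9.52% and 6.3% of all genes. With summed reads DENR was higher with siCDH3AS1 in batch 1 and lower in batch 2. DENR, which with MCTS1 promotes reinitiation after short upstream frames, had 28.0 and 41.9 CPM in batch 2, against 10.6 and 7.60 CPM in batch 1 (log2 fold change 1.84, adjusted p = 5.6e-05 by edgeR's quasi-likelihood test).

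Of 40 targets of ATF4 and CHOP, 36 were tested. Between the siRNAs 0 were called without the block, and with it 1, the cystine transporter SLC7A11, was called lower. The folate enzyme ALDH1L2 had 42.1 and 40.6 CPM in the siCDH3AS1 libraries, against 19.5 and 20.8 CPM in the siCtrl libraries, and its log2 fold change of 1.06 missed the threshold with the block (adjusted p = 0.0873 by edgeR's quasi-likelihood test). The glycoprotein STC2 (1.18) and the amino acid transporters SLC7A5 (0.52) and SLC7A1 (0.57) did not pass either. The 36 genes had a median of 0.40 between the siRNAs with summed reads. Between the batches 11 were called lower in batch 2: the aminoacyl-tRNA synthetases AARS1 and WARS1, the amino acid and folate enzymes ASNS, CBS, MTHFD2, PHGDH and SHMT2, the transporter SLC7A11, and the stress genes DDIT4, GDF15 and TRIB3, where 6.3% of all genes were called lower and 9.52% higher. The other 2 calls, ERO1A and VLDLR, were higher, and the median of the 36 was -0.41, beside 0.01 over all genes.

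Of 16 other mRNAs with known upstream frames, 12 were tested in the coding sequence, and 3 were called higher in batch 2 (CDKN1B, EPRS1 and TAF7) and 0 lower, where 9.52% of all genes were called higher and 6.3% lower. In the 5′ UTR AZIN1, CEBPB, MDM2, CDKN1B, AMD1 and EPRS1 (on 1 to 13 reads) were lower in both batch 2 libraries than in both batch 1 libraries. Of 3967 tested genes 29.7% were lower in this way. PTP4A1 and PRKCH were higher. The difference of this list from the members or from all genes was not tested. CDKN1B, the cell cycle inhibitor p27, had 139.9 and 118.5 CPM in batch 2, against 43.0 and 47.2 CPM in batch 1. Its 5′ UTR share was 19.6% and 15.1% in batch 2, against 38.7% and 43.9% in batch 1. TAF7 had a share of 19.2% and 18.9% in batch 2, against 25.6% and 38.3% in batch 1. Both shares were lower in batch 2, where the coding reads that enter the share were higher.

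The 5′ UTR shares of AZIN1, an antizyme inhibitor, were above those of all 7 members in 3 of the 4 libraries, and those of AMD1, an enzyme of polyamine synthesis, in both siCDH3AS1 libraries. AZIN1 had 65.7% and 63.6% in siCDH3AS1 replicates 1 and 2, against 75.1% and 42.8% in siCtrl replicates 1 and 2. AMD1 had 52.4% and 62.9%, against 57.7% and 24.6%. The protease BACE1 had 27.8% and 42.7% in the siCDH3AS1 libraries, against 41.1% and 37.3% in the siCtrl libraries. The p53 regulator MDM2 had 10.3% and 13.5%, against 18.8% and 8.10%, and the transcription factor CEBPB 13.8% and 8.81%, against 8.86% and 3.06%, which in siCtrl replicate 2 was under the share of the library. The phosphatase PTP4A1 had 21.6% and 64.1% in siCDH3AS1 replicates 1 and 2, against 31.6% and 67.8% in siCtrl replicates 1 and 2, and the kinase PRKCH 13.7% and 29.5%, against 11.9% and 20.7%. With summed reads both were higher in batch 2 with either siRNA. On the transcript with most reads PTP4A1 had 12.3% and 8.70% with siCDH3AS1, against 9.30% and 13.9% with siCtrl. There its share was lower in batch 2 with siCDH3AS1. Between the siRNAs the log2 fold changes of PTP4A1 and PRKCH in the coding sequence were 0.47 and -0.01 with the block, and 0 of the 12 genes were called.

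By the ratio of 5′ UTR to coding reads on the transcript with most reads, the genes nearest to the median profile of the 7 members over the 4 libraries were BMPR2, AKAP10, RAB5A, NR1D2 and CGGBP1. Their distances on the log2 scale were 0.229, 0.325, 0.353, 0.403 and 0.475, among 5439 genes. The median profile was that of ATF4 in the batch 1 libraries and that of SLC35A4 in the batch 2 libraries, with PPP1R15A far above it and DDIT3, PPP1R15B and IFRD1 far below it on these transcripts.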

How the data were processed

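Ribosome footprints were measured in 4 libraries. Per the file headers, the authors deposited counts of reads per transcript for the 5′ UTR, coding sequence, 3′ UTR and all regions, with region lengths in bases, and RPKM values of each region. The submitters' processing notes name hg38 and DESeq2. The aligner, annotation release, use of strand and treatment of reads that fit several transcripts: not given in the sources used here. Library totals were 6759850 and 2858835 reads for siCDH3AS1 replicates 1 and 2, and 2034854 and 5994485 for siCtrl replicates 1 and 2.

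For each gene the transcript with most reads over the 4 libraries was the planned unit, and reads summed over all transcripts of a gene (38455 listed for 14355 gene names) were the alternative. Since the deposited reads of most members were split over transcripts, the text leads with summed reads, and this choice was made after seeing the data. Counts were tested with edgeR 4.0.16 in R 4.3.3 (TMM scaling, filterByExpr with a minimum count of 10 and a minimum total of 15, quasi-likelihood test, prior count of 2, Benjamini-Hochberg adjustment over all genes, threshold 0.05). The interaction test put the 5′ UTR and coding counts of each gene side by side, with library and region as terms. On counts simulated without a difference between batches the tests recovered part of the changed genes, with no reversed sign. The exception was the interaction test with the block. It recovered none at the larger of the 2 spreads simulated, so its few calls say little. Since the batches differ in the real libraries, the simulation does not show how many changes the tests would recover here. DESeq2 1.42.0 and limma 3.58.1 on log2(RPKM + 1), no filter, each library left out and the replicate block were alternatives, as were other choices of transcript and reads per base for the shares. The labels give same-numbered libraries a shared batch, so the numbers pair the libraries, and deviations of same-numbered libraries correlated across genes (r = 0.58 with summed reads). The block leaves 1 residual degree of freedom, against 2 without it.

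Members and gene lists were chosen with earlier results of these data known. Named genes were the members, up to 4 genes per list with the smallest p on the transcript with most reads that moved alike in both batches, mRNAs with upstream frames and at least 20 5′ UTR reads in every library, and the 5 nearest genes (Euclidean distance of log2 ratios with a pseudocount of 0.5). Genes called between the batches were named after their values were seen. Sequences and coordinates are from RefSeq GRCh38.p14, where all 7 members matched by symbol.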

Additional observations from a re-analysis of the deposited data

How the results depend on the processing

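Values of SLC35A4, and of IFRD1 and DDIT3 in the 5′ UTR, are limited by depth. Coding-sequence calls between the siRNAs numbered 0 with all libraries, 148 with the replicate block (170 with summed reads), 2 with DESeq2, 47 with no filter, and 0 to 73 when 1 library was left out. Calls in the 5′ UTR numbered 0, 7 with no filter and 0 to 16 with 1 library left out, and interaction calls 0, 1 with the replicate block and 0 to 3 with 1 library left out. No member was called between the siRNAs in the fits with all libraries. Batch calls in the coding sequence numbered 1657, against 694 with DESeq2, 538 with no siRNA term and 29 to 1281 with 1 library left out; in the 5′ UTR 426, against 188 with DESeq2, 154 on the transcript with most reads and 0 to 723; in the interaction 332, against 74 to 955. On the transcript with most reads 4 of the 7 members were above the library's 5′ UTR share, where 14% of genes were. With summed reads it was 5, where 21.7% of genes were. Under both other choices of transcript it was 2, where 13.3% and 13.4% of genes were. The causes of these differences were not tested.

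Signs of uncalled siRNA differences turned as follows (log2). In the coding sequence SLC35A4 (0.038) was -0.030 with the block, -0.018 with summed reads and the block, and -0.042 by limma, and DDIT3 (0.35) was -0.012 with summed reads and the block. In the 5′ UTR SLC35A4 (-0.11) was 0.040 with no filter. In the interaction SLC35A4 (0.0054) was -0.19 with the block, -0.11 by DESeq2, -0.0091 with summed reads and -0.21 with both. Leaving out 1 library unbalances the batches. Coding values then ran from -1.29 to 2.36 for ATF4, -0.38 to 3.31 for ATF5, -0.86 to 0.99 for DDIT3, -0.12 to 0.65 for PPP1R15B, -0.28 to 1.13 for PPP1R15A (summed reads), -0.78 to 0.65 for IFRD1 and -0.35 to 0.43 for SLC35A4. 5′ UTR values ran from -0.28 to 1.44 for ATF4, -0.66 to 1.68 for ATF5, -0.45 to 1.45 for PPP1R15A, -0.22 to 1.12 for PPP1R15B (summed reads) and -1.37 to 1.16 for SLC35A4. Interaction values ran from -0.60 to 1.01 for ATF4, -1.52 to 0.60 for ATF5 and -1.31 to 0.98 for SLC35A4, and with summed reads from -0.16 to 0.77 for PPP1R15B, -0.034 to 0.41 for PPP1R15A and -0.61 to 1.97 for DDIT3. Between the batches the interaction of ATF5 (-0.37) was 0.51 on the transcript with most reads and -0.65 to 0.045 with 1 library left out, and that of PPP1R15B (-0.41) was -0.74 to 0.084.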
